A study of Mus musculus with 9 samples.

Results

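Open chromatin of RXRα- and RXRβ-deficient long-term haematopoietic stem cells (LT-HSCs) was compared with that of multipotent progenitors (MPPs) lacking the same retinoid X receptors. The comparison took the 5 knockout (KO) libraries of the 9 in the series: LT-HSC KO 1, 2 and 4 against MPP KO 1 and 2. Their deposited peak lists were merged wherever peaks overlapped, and each merged region was compared by its presence and by its rank in the lists. The other 4 libraries, from wild-type (WT) cells, were LT-HSC WT 2 and 3 and MPP WT 1 and 2. They took no part in choosing regions.

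All groups came from bone marrow of C57BL/6 mice, and both KO groups carry the genotype RXRa/RXRb-KO, so the loss of both receptors is shared by the cell types compared. Lineage-negative cells of pooled animals were enriched and then sorted into LT-HSCs and MPPs, per the labels. The deleted segments, the Cre driver and the age of the mice were not given in the labels used. The assay was ATAC-seq: the transposase Tn5 cuts accessible DNA and adds sequencing tags at the cuts. Nothing in the labels says that libraries of a group came from separate pools of animals. The p-values then reflect the spread of these libraries alone, and that spread may be technical.

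Retinoid X receptors are nuclear receptors that bind DNA mostly as partners of other receptors, among them the retinoic acid, vitamin D, thyroid hormone, liver X (LXR) and peroxisome proliferator-activated (PPAR) receptors. LT-HSCs divide rarely and can rebuild all blood lineages for the life of an animal. MPPs arise from them, divide more often and have begun to open the regulatory DNA of the mature lineages.

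The LT-HSC KO lists held 22690, 43126 and 71586 peaks (KO 1, 2 and 4) and the MPP KO lists 78189 and 86353 (KO 1 and 2). Every LT-HSC KO list was shorter than either MPP KO list, with means of 45801 ± 24557 (SD, n = 3) and 82271 ± 5773 (SD, n = 2). The difference did not pass a two-sided exact permutation test over the 10 ways of labelling the libraries (p = 0.2; the smallest p this design allows is 0.1). The depth behind each list is unknown, because peak lists carry no read counts. To compare lists of unequal length, each was also taken down to its 22690 strongest peaks by q-value, the length of the shortest list, and these are called equal lists below. The weakest peak kept had a −log10 q of 1.37, 9.72 and 33.0 in LT-HSC KO 1, 2 and 4, against 42.8 and 51.4 in MPP KO 1 and 2, so the equal lists still reach different strengths of evidence.

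Merging gave 108963 regions. At least 1 equal list held 38359 of them, and all 5 equal lists held 10775. Overlap in equal lists is given as the Jaccard index, the regions shared by a pair of libraries divided by all regions either holds. It was 0.657 between LT-HSC KO 1 and 2, 0.515 between KO 1 and 4, 0.554 between KO 2 and 4, and 0.854 between the MPP KO libraries. Between cell types it was 0.422 to 0.434 for LT-HSC KO 1 and 2, and 0.522 and 0.526 for LT-HSC KO 4. Pairs within a cell type averaged 0.185 more than pairs between cell types (p = 0.1, two-sided exact permutation test, the smallest p possible).

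LT-HSC KO 4 stood apart from the other LT-HSC KO libraries and was nearer to the MPP KO libraries than they were. Across the 10775 regions in all equal lists, the Spearman correlation of its ranks was 0.595 and 0.603 with MPP KO 1 and 2, against 0.487 and 0.570 with LT-HSC KO 1 and 2. LT-HSC KO 1 and 2 correlated with each other at 0.855, and the MPP KO pair at 0.974. These correlations are across regions that share the merging and the cut, and are descriptions. Of the 6411 regions that both MPP KO equal lists held and LT-HSC KO 1 and 2 did not, LT-HSC KO 4 held 32.2%. The same share was 9.78% for LT-HSC KO 1 and 6.80% for LT-HSC KO 2, each against regions set by the other LT-HSC KO lists. Counts that depend on LT-HSC KO 4 are therefore also given without it.

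**Figure D1:**
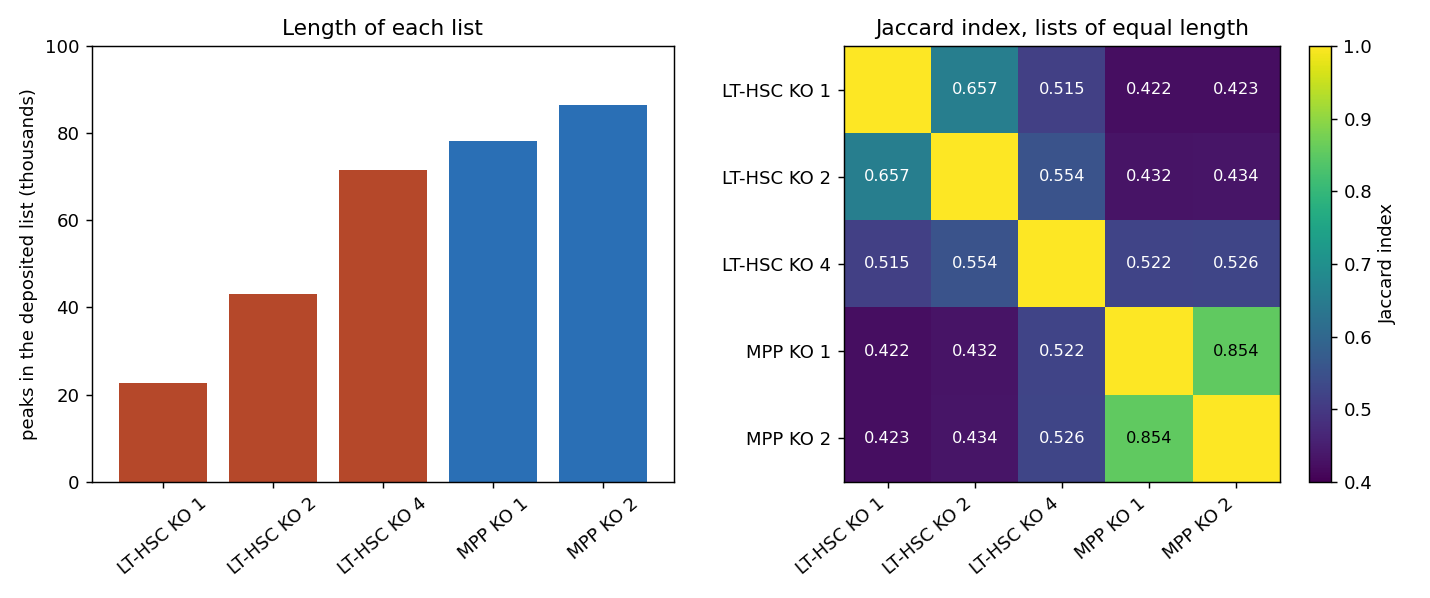
Left, number of peaks in each deposited list of the 5 KO libraries, LT-HSC KO in red and MPP KO in blue. Right, Jaccard index of each pair in lists cut to 22690 peaks; the MPP KO pair reaches 0.854, and LT-HSC KO 4 lies at 0.515 to 0.554 with every other library.

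Regions held by one cell type were counted in 3 ways. In the full lists, 1528 regions were in all 3 LT-HSC KO lists and in no MPP KO list (1.4% of 108963), and 20434 were in both MPP KO lists and in no LT-HSC KO list (18.8%). In equal lists the counts were 2568 for LT-HSC KO (6.69% of 38359) and 4345 for MPP KO (11.3%). Strong regions were in the equal list of every library of one cell type and nowhere in the full lists of the other. There were 377 in LT-HSC KO (0.983% of 38359) and 1198 in MPP KO (3.12%). Below, counts of a gene list's regions in 1 cell type alone refer to equal lists. Unless it is strong, such a region still has a weaker peak in at least 1 full list of the other cell type. The equal list of LT-HSC KO 1 is its whole list, so the word strong sets no limit of rank in that library. With 3 libraries against 2, no single region can reach an exact p under 0.1, so these sets are descriptions without a test. Without LT-HSC KO 4 the strong counts were 1252 and 3708, and without LT-HSC KO 1, where the equal lists lengthen to 43126 peaks, they were 2167 and 5362. More strong regions were held by MPP KO than by LT-HSC KO in both cases. The counts of the cell types are not on equal terms. A strong MPP KO region must be in 2 equal lists and absent from the shorter full lists of LT-HSC KO. A strong LT-HSC KO region must be in 3 equal lists and absent from the longer full lists of MPP KO. Leaving out LT-HSC KO 4 or 1 evens the number of lists but not their lengths. The shares of all regions against which lists are read change too. Without LT-HSC KO 4 they were 15.3% in LT-HSC KO alone and 17.98% in MPP KO alone, with 3.50% and 10.4% strong. Without LT-HSC KO 1 they were 9.12% and 13.1%, with 3.24% and 8.02% strong. No difference between gene lists was tested.

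The promoters in these sets show the contrast in named genes, and the DNA at 6 starts follows, from RefSeq (GRCm38.p6, the same primary chromosomes as mm10). Each runs from 250 bases before to 50 bases after the start, 5′ to 3′ on the gene's strand. Capitals mark matches on either strand. The letters searched were TGANTCA for AP-1, AGATAA for the GATA family, TGTGGT for RUNX factors, GGAAGT for ETS factors and CACGTG for the E-box. Also searched were AGGTCA, the core unit bound by retinoid and related receptors, GGGCGG for the GC box, TGACGTCA for the CRE, and the letters CCAAT. No base of the 6 windows lies in matches to 2 motifs. Pdk4, a kinase that turns off pyruvate dehydrogenase and a classical PPAR target, and Acox2, a peroxisomal oxidase of branched fatty acids and bile acid intermediates, had strong regions at their starts in LT-HSC KO. Ctsg, the neutrophil protease cathepsin G, and Ly6c2, a monocyte surface protein, had them in MPP KO. Srsf10, a splicing regulator, and Set, a histone chaperone and phosphatase inhibitor, had start regions held by every library that ranked far higher in MPP KO. Another Set start, chr2:30061746-30062045, is not shown. Its region ranked 24197 and 23420 in MPP KO 1 and 2 and was in no LT-HSC KO list.

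Pdk4, chr6:5496229-5496528, minus strand: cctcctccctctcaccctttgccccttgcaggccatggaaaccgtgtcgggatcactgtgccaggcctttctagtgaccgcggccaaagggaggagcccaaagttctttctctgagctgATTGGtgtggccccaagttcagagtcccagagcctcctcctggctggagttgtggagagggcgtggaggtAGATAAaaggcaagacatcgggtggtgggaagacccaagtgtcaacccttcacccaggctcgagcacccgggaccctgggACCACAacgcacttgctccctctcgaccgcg
Acox2, chr14:8258790-8259089, minus strand: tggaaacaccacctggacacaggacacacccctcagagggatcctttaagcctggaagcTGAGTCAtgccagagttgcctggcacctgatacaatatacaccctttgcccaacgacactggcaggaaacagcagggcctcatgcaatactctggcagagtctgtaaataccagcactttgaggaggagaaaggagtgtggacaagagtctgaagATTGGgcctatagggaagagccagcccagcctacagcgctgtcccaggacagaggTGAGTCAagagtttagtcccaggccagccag
Ctsg, chr14:56102525-56102824, minus strand: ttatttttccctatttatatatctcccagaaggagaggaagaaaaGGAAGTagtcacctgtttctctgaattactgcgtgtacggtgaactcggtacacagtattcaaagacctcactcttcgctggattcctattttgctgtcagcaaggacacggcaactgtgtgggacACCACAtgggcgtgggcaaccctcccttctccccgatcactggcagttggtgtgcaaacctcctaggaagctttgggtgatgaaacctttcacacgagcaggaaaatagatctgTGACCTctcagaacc
Ly6c2, chr15:75111922-75112221, minus strand: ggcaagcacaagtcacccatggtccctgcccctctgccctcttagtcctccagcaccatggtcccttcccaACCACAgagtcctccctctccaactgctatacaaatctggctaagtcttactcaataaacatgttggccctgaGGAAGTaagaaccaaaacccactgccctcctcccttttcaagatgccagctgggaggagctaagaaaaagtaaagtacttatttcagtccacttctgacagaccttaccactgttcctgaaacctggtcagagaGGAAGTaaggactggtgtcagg
Srsf10, chr4:135855821-135856120, plus strand: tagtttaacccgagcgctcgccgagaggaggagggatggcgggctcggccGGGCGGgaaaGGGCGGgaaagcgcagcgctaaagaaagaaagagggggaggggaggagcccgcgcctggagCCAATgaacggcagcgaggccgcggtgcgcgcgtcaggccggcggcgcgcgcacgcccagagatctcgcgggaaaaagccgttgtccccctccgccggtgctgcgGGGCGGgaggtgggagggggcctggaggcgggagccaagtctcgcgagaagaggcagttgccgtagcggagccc
Set, chr2:30066224-30066523, plus strand: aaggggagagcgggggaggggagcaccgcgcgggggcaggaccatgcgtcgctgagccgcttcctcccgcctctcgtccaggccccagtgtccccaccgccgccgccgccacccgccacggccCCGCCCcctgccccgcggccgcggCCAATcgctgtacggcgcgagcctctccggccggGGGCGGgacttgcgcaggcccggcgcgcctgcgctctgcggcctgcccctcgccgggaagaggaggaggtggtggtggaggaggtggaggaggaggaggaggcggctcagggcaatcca

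The Pdk4 window matched the GATA, RUNX and CCAAT letters, the Acox2 window AP-1 and CCAAT, and the Ctsg window RUNX, ETS and AGGTCA. The Ly6c2 window matched RUNX and ETS. The Srsf10 and Set windows matched the GC box and CCAAT and were richer in G and C, at 71.3% and 77.3%, than the Pdk4 window at 60.7% and the Ctsg window at 48.0%. Of all 20085 promoters, 9.57% held the GATA letters, 14.8% RUNX, 25.0% ETS, 7.06% AP-1, 14.7% AGGTCA, 47.0% the GC box and 38.1% CCAAT. A match describes letters and is not evidence that a factor binds.

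At the Pdk4 start, the region chr6:5496253-5496920 ranked 2237.5, 2406 and 12062 in LT-HSC KO 1, 2 and 4, where rank 1 is the strongest peak, and no MPP KO list had a peak. The region over both Acox2 starts ranked 10063.5, 13053 and 21579.5 in LT-HSC KO 1, 2 and 4 and was in no MPP KO list. At the Ctsg start, chr14:56102361-56102775 ranked 15199 and 18123 in MPP KO 1 and 2 and was in no LT-HSC KO list. A neighbouring Ctsg region, chr14:56105086-56105948, ranked 13296.5 and 18473 in MPP KO and was also absent from the LT-HSC KO lists. The Ly6c2 start region ranked 16133.5 and 18262 in MPP KO alone. In all 4 genes every library of one cell type held the region and none of the other did, because strong regions are chosen by that rule.

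With all 5 libraries, some genes that define stem cells carried strong regions in LT-HSC KO alone. The 25 HSC identity genes had 106 regions in equal lists. LT-HSC KO alone held 15 of them (14.2%, against 6.69% of all regions) and MPP KO alone 8 (7.55%, against 11.3%). Strong regions were 5 in LT-HSC KO, among them regions at Slamf1, Hlf, Mllt3 and Angpt1, and 0 in MPP KO. These were 4.72% and 0% of the list's regions, against 0.983% and 3.12% of all regions. The 0 in MPP KO held neither without LT-HSC KO 4 nor without LT-HSC KO 1. Without LT-HSC KO 4, 6 strong regions were in LT-HSC KO and 9 in MPP KO (6.32% and 9.47%, against 3.50% and 10.4% of all regions). The equal-list counts were then 16 and 18 of 95 regions (16.8% and 18.9%), against 15.3% and 17.98% of all regions. Without LT-HSC KO 1 they were 31 and 19 of 214 (14.5% and 8.88%, against 9.12% and 13.1% of all regions). In that case 13 and 11 were strong (6.07% and 5.14%, against 3.24% and 8.02% of all regions).

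Mllt3, a reader of acetylated histones that maintains HSCs, had a region inside the gene, chr4:87823165-87823947, that ranked 5051.5, 14129.5 and 3314 in LT-HSC KO 1, 2 and 4. Slamf1 encodes CD150, the surface protein used to sort LT-HSCs. Its region chr1:171773133-171773731, inside the gene, ranked 18985.5, 21049.5 and 6657. Hlf, a transcription factor of stem cells, had chr11:90382016-90382428 at ranks 13594.5, 15439 and 8294. Angpt1, a ligand of the TEK receptor, had chr15:42683692-42684201 at 18177.5, 16388 and 20037. None of these 4 regions had a peak in MPP KO 1 or 2, and LT-HSC KO 4 gave the best rank at 3 of them. The WT lists, which took no part in the choice, had peaks at all 5 strong regions of the list in LT-HSC WT 2 and in LT-HSC WT 3, and in each MPP WT list at 1, Hlf, at ranks 78306 and 79924.5.

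Some regions of this list were held by both cell types at different ranks or leaned to MPP KO. Esam, an adhesion protein of HSCs and endothelium, had a region inside the gene that ranked 2812, 1893 and 5437 in LT-HSC KO and 19032 and 20868.5 in MPP KO. Its position in the list, given as a percentile where 100 is the strongest peak, averaged 85.1 ± 8.11 (SD, n = 3) in LT-HSC KO and 12.1 ± 5.72 (SD, n = 2) in MPP KO. The difference of 73.0 (SE 10.5) had an adjusted p of 0.034 by limma. The Vwf start, chr6:125552714-125553105, had peaks in LT-HSC KO 2 and 4 alone, at ranks 12964.5 and 14274. Vwf encodes von Willebrand factor, a marker of platelet-biased HSCs. The starts of Hlf and Gfi1b ranked better in MPP KO (4719.5 and 5419.5 for Hlf) than in LT-HSC KO, where Hlf had no peak in KO 1 and ranks of 18556.5 and 14749 in KO 2 and 4.

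The labels were compared with markers of each cell type, library by library. Of 33 regions of 10 LT-HSC markers, the equal lists of LT-HSC KO 1, 2 and 4 held 45.5%, 69.7% and 84.8%, and those of MPP KO 1 and 2 held 48.5% each. Of 24 regions of 7 MPP markers, the LT-HSC KO lists held 37.5%, 45.8% and 33.3% and the MPP KO lists 70.8% and 75%. LT-HSC KO 4 thus held the highest share of LT-HSC marker regions and the lowest of MPP marker regions, while LT-HSC KO 1 was no higher than MPP KO on the LT-HSC markers. Of all regions in equal lists, each library held between 57.5% and 59.0%. By groups, 5 LT-HSC marker regions were in LT-HSC KO alone and 1 in MPP KO alone (15.2% and 3.03%, against 6.69% and 11.3% of all regions). Of the MPP marker regions 0 and 6 were (0% and 25.0%), the 6 at Flt3, Cd48, Cd34, Satb1 and Dntt. Of these 6, 0 were strong, so each had a peak in at least 1 full LT-HSC KO list. At Flt3, the cytokine receptor whose surface level marks MPP subsets, a region inside the gene ranked 11250 and 9726 in MPP KO 1 and 2, while it ranked 37564.5 in LT-HSC KO 4 and was missing from LT-HSC KO 1 and 2. Both Cd34 regions had the same pattern, with ranks of 5922.5 to 8989 in MPP KO and of 32116.5 and 44970 in LT-HSC KO 4. The Flt3 start itself was open in all 5 libraries, at ranks 5865, 5833.5 and 3731 in LT-HSC KO and 1319 and 1435 in MPP KO. Of the surface and lymphoid-primed genes as a whole, 35 regions gave 3 in LT-HSC KO alone, all at Bcl11a, and 8 in MPP KO alone (8.57% and 22.9%). Without LT-HSC KO 4 the counts were 5 and 10 of 34 (14.7% and 29.4%, against 15.3% and 17.98% of all regions).

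**Figure D2:**
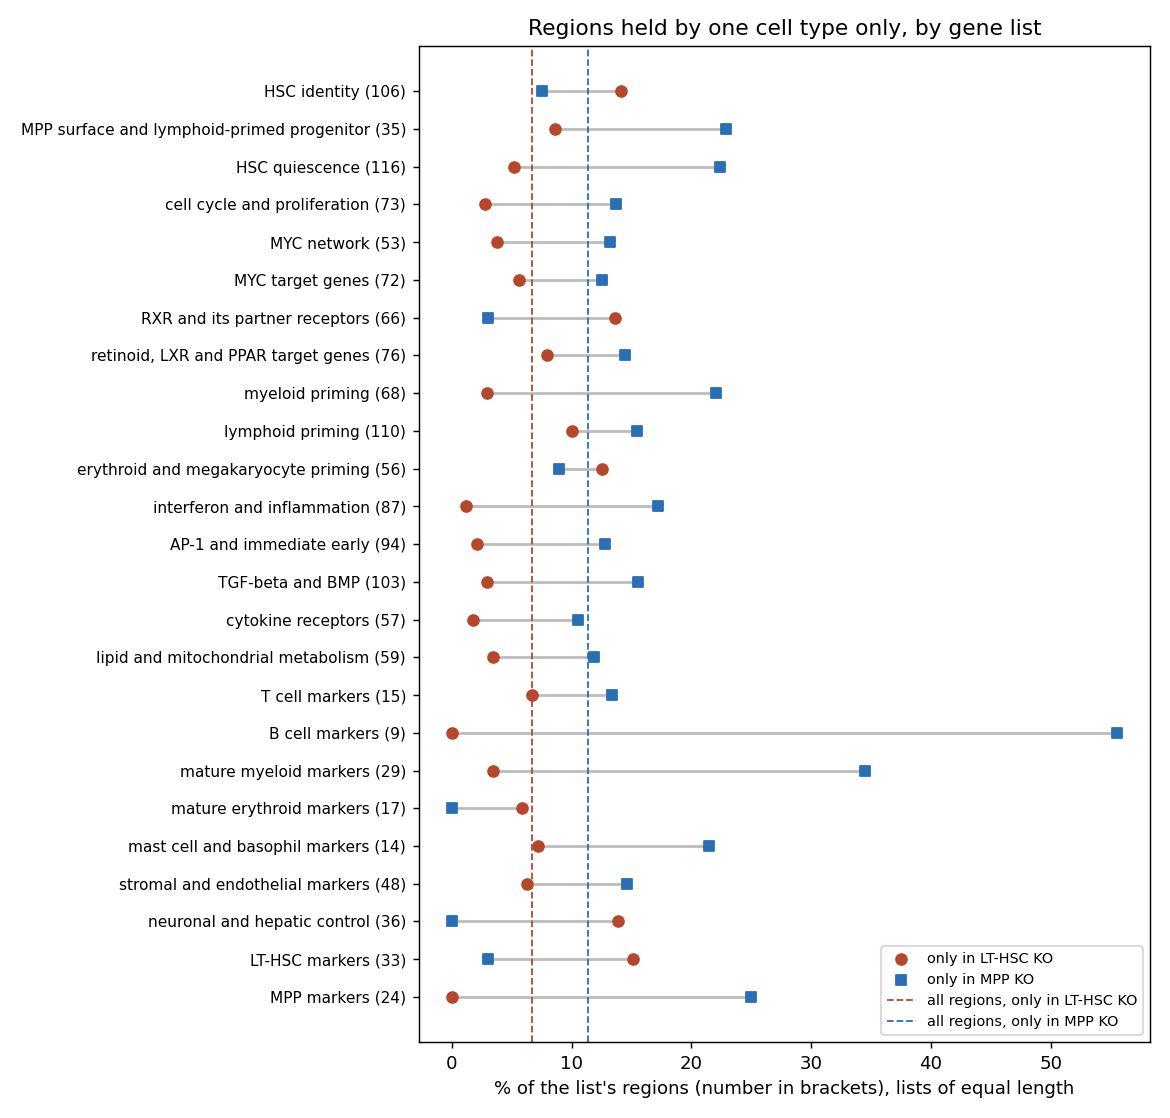
For each gene list, the percentage of its regions in equal lists held by all 3 LT-HSC KO libraries and no MPP KO library (red circles), and by both MPP KO libraries and no LT-HSC KO library (blue squares); the number of regions is in brackets and dashed lines give the same over all regions, 6.69% and 11.3%. HSC identity genes, LT-HSC markers, RXR and its partners, erythroid and megakaryocyte genes, and the neuronal and hepatic control lie above the LT-HSC KO line and below the MPP KO line.

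Of 116 regions at 24 quiescence genes, LT-HSC KO alone held 6 (5.17%, against 6.69% of all regions) and MPP KO alone 26 (22.4%, against 11.3%). The strong regions were 1 in LT-HSC KO, at Pdk4, and 10 in MPP KO. With LT-HSC KO 4 left out, 2 and 26 were strong (1.90% and 24.8% of the list's regions, against 3.50% and 10.4% of all regions). With LT-HSC KO 1 left out, 15 and 35 of 206 were separated (7.28% and 17.0%) and 6 and 18 were strong (2.91% and 8.74%), so the strong share in MPP KO was then close to the 8.02% of all regions. Of the 10 strong MPP KO regions, 7 were at Smad3, Tgfbr2 and Tgfbr1 of the TGF-β pathway. Smad3, the signal transducer of TGF-β receptors, had 8 regions in MPP KO alone, 3 of them strong. The best ranked of these, chr9:63731437-63731846, ranked 9383 and 10820 in MPP KO and was in no LT-HSC KO list. Tgfbr2, the type II TGF-β receptor, had 3 strong regions with ranks of 9374 to 18443 in MPP KO. Foxo3, Btg2 and Cxcr4 had 1 strong MPP KO region each. Cxcr4, the receptor that holds HSCs in the marrow, also had a region that was higher in LT-HSC KO, at a mean position of 69.8 against 18.7 (difference 51.1, SE 11.3, adjusted p = 0.049 by limma).

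The wider TGF-β and BMP list shares Smad3, Smad7, Tgfbr1 and Tgfbr2 with the quiescence genes. Of its 103 regions, 3 were in LT-HSC KO alone and 16 in MPP KO alone, and 0 and 9 were strong. The shares in 1 cell type alone were 2.91% and 15.5%, against 6.69% and 11.3% of all regions. The shared genes carried 7 of the 9 strong regions, so this count largely repeats the one above. The strong counts were 1 and 17 of 89 (1.12% and 19.1%, against 3.50% and 10.4% of all regions) without LT-HSC KO 4. Without LT-HSC KO 1, 14 and 24 of 175 were separated (8% and 13.7%, against 9.12% and 13.1% of all regions) and 7 and 17 strong (4% and 9.71%, against 3.24% and 8.02%). One of the 9 was at the start of Tgfb1, the TGF-β ligand, at ranks 11829 and 17966 in MPP KO. The Tgfb1 region was in no LT-HSC KO list, but both LT-HSC WT lists held it, at ranks 27374 and 17538.

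Myeloid genes had more regions in MPP KO alone. Of 68 regions at myeloid priming genes, 2 were in LT-HSC KO alone and 15 in MPP KO alone, with 1 and 5 strong. The shares were 2.94% and 22.1%, against 6.69% and 11.3% of all regions. Without LT-HSC KO 4 the separated counts were 2 and 22 of 59 (3.39% and 37.3%, against 15.3% and 17.98%), with 1 and 15 strong. Without LT-HSC KO 1 they were 6 and 32 of 113 (5.31% and 28.3%, against 9.12% and 13.1%), with 2 and 17 strong. The 5 strong regions were at Ctsg (2), Ly6c2, Klf4, a monocyte transcription factor, and Csf2rb, the shared beta chain of the GM-CSF, IL-3 and IL-5 receptors. The 1 strong LT-HSC KO region lay near Csf2ra, the alpha chain of the GM-CSF receptor. Of 110 regions at lymphoid priming genes, 11 were in LT-HSC KO alone and 17 in MPP KO alone (10% and 15.5%, both above the shares of all regions), with 1 and 4 strong. They had 2 and 23 strong of 102 (1.96% and 22.5%, against 3.50% and 10.4% of all regions) without LT-HSC KO 4. Without LT-HSC KO 1, 15 and 23 of 185 were separated (8.11% and 12.4%) and 4 and 14 strong (2.16% and 7.57%), none above the shares of all regions. Foxp1, a transcription factor of early B cell development, carried 3 of the strong MPP KO regions, with ranks of 12617 to 21157. Gata3, needed for T cell fate and also active in HSCs, carried the LT-HSC KO one at ranks 8854.5, 18465.5 and 16659.

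Of 56 regions at erythroid and megakaryocyte genes, 7 were in LT-HSC KO alone and 5 in MPP KO alone (12.5% and 8.93%, against 6.69% and 11.3% of all regions), with 1 strong LT-HSC KO region at Mmrn1, a platelet protein, and 2 strong MPP KO regions at Rhd and Tfrc. The counts without LT-HSC KO 4 were 10 and 10 of 51 (19.6% each, against 15.3% and 17.98% of all regions), with 2 and 6 strong. Without LT-HSC KO 1 they were 12 and 13 of 97 (12.4% and 13.4%, against 9.12% and 13.1% of all regions). A region 0.115 kb from Pf4, the platelet chemokine, ranked 3114, 2784 and 3286 in LT-HSC KO and 19024 and 18626 in MPP KO. That difference of position was 69.5 (SE 9.43, adjusted p = 0.034 by limma). Epor, the erythropoietin receptor, had a region at ranks 3138, 4000 and 3701 in LT-HSC KO and 13932 and 12237 in MPP KO. Its difference of position was 41.7 (SE 8.82, adjusted p = 0.047 by limma).

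Markers of mature B cells and myeloid cells had more regions in MPP KO alone. Of 9 regions of B cell markers in equal lists, 0 were in LT-HSC KO alone and 5 in MPP KO alone. The shares were 0% and 55.6%, against 6.69% and 11.3% of all regions. The LT-HSC KO equal lists held 22.2% to 33.3% of the 9 regions, and the MPP KO lists 100% and 88.9%. Cd79a and Vpreb1 had no region in any list. Cr2, a complement receptor of B cells, went the other way at a region held by all 5 libraries. Its mean position was 94.0 ± 6.11 in LT-HSC KO and 48.9 ± 0.413 in MPP KO (SD, n = 3 and 2). The difference was 45.1 (SE 7.28, adjusted p = 0.034 by limma). The other B cell marker region in all 5 equal lists was also higher in LT-HSC KO (difference of position 44.8), without passing the test. Of 29 regions of mature myeloid markers, 1 was in LT-HSC KO alone and 10 in MPP KO alone (3.45% and 34.5%), led by Itgam with 3. The LT-HSC KO equal lists held 31.0% to 41.4% of these regions and the MPP KO lists 65.5% and 69.0%. With LT-HSC KO 4 left out the B cell counts were 0 and 6 of 8 (0% and 75%) and the mature myeloid counts 1 and 11 of 28 (3.57% and 39.3%). All regions then had 15.3% and 17.98%. Of 15 regions of T cell markers the counts were 1 and 2 (6.67% and 13.3%), with no region at Cd3g or Cd8a, and of 48 at stromal and endothelial markers 3 and 7 (6.25% and 14.6%), near the 6.69% and 11.3% of all regions. Of 14 at mast cell and basophil markers they were 1 and 3 (7.14% and 21.4%), and of 17 at mature erythroid markers 1 and 0 (5.88% and 0%). In bulk libraries, more cells of a type and more open DNA per cell cannot be told apart. The part of mature cells in the MPP KO counts was not tested.

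The targeted genes and their partners were examined next. Rxra had 25 regions, with 0, 4 and 18 held by LT-HSC KO 1, 2 and 4 and 18 and 21 by MPP KO 1 and 2. No longer list held fewer of them than a shorter one, but the numbers were not in proportion to the lists. Of all regions, the same full lists held 20.3%, 38.5% and 64.6% (LT-HSC KO 1, 2 and 4) and 70.6% and 78.2% (MPP KO 1 and 2). The part of list length was not tested. None of the Rxra regions was separated in equal lists. At Rxrb, the start region chr17:34031485-34032150 was in all 5 full lists. It ranked 13824, 37287 and 25707 in LT-HSC KO and 5695 and 7067 in MPP KO. A peak at a gene start does not show whether exons were deleted, so the knockout could not be checked from these lists. The start of Rxrg, the RXR gene that the genotype does not name, ranked 12721, 10573.5 and 25838 in LT-HSC KO and 63255.5 and 74580.5 in MPP KO.

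Of 66 regions at RXR and its partner receptors, 9 were in LT-HSC KO alone and 2 in MPP KO alone. The shares were 13.6% and 3.03%, against 6.69% and 11.3% of all regions. Without LT-HSC KO 4 the counts were 16 and 10 of 59 (27.1% and 16.9%, against 15.3% and 17.98% of all regions). Without LT-HSC KO 1 they were 12 and 13 of 124 (9.68% and 10.5%, against 9.12% and 13.1%), so the lead in LT-HSC KO was lost. Rarb, the retinoic acid receptor β and itself a retinoic acid target, accounted for 4 of the 9. Its strong region chr14:16613955-16614442 ranked 12721, 9445 and 13417.5 in LT-HSC KO and was in no MPP KO list. A second, chr14:16605447-16605870, ranked 2477.5, 3192.5 and 8694 in LT-HSC KO and 51450 and 49169 in MPP KO, where it lay beyond the equal lists. Thrb, a thyroid hormone receptor, and Nr4a2, an orphan receptor that can pair with RXR, had 2 each, and Vdr, the vitamin D receptor, had 1. The 2 in MPP KO were at Rara and Thra, and the Rara region chr11:98952685-98953138 was strong at ranks 16719 and 20576. A further Thrb region was held by all 5 libraries at a mean position of 85.9 ± 8.44 in LT-HSC KO and 37.2 ± 2.90 in MPP KO (SD, n = 3 and 2; difference 48.6, SE 9.67, adjusted p = 0.043 by limma).

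Genes known as targets of retinoid, LXR and PPAR receptors were separated towards MPP KO at shares above those of all regions. Towards LT-HSC KO the shares lay on either side of those of all regions. Of 76 regions, 6 were in LT-HSC KO alone and 11 in MPP KO alone (7.89% and 14.5%, against 6.69% and 11.3%), and 2 and 3 were strong. With LT-HSC KO 4 left out, 9 and 17 of 71 were separated (12.7% and 23.9%, against 15.3% and 17.98%). Of the 71, 3 and 11 were strong (4.23% and 15.5%, against 3.50% and 10.4%). With LT-HSC KO 1 left out, 11 and 21 of 125 were separated (8.8% and 16.8%, against 9.12% and 13.1%). Of the 125, 5 and 14 were strong (4% and 11.2%, against 3.24% and 8.02%). The strong LT-HSC KO regions were at Pdk4 and at Cd36, a fatty acid transporter, whose region ranked 5278.5, 6158 and 12894. The strong MPP KO regions were at Abca1, the cholesterol exporter, at Plin2, a lipid droplet coat protein, and at Cpt1a, which carries fatty acids into mitochondria. The Abca1 region ranked 19486 and 20553.5 in MPP KO. Among 59 regions of lipid and mitochondrial metabolism the counts were 2 and 7 (3.39% and 11.9%). Without LT-HSC KO 4 they were 6 and 10 of 54 (11.1% and 18.5%, against 15.3% and 17.98% of all regions). A strong MPP KO region was at Ppargc1a, a coactivator of mitochondrial genes, at ranks 11533 and 12142.

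Growth genes were separated at shares near the background towards MPP KO and below it towards LT-HSC KO. Of 73 cell cycle regions, 2 were in LT-HSC KO alone and 10 in MPP KO alone (2.74% and 13.7%, against 6.69% and 11.3% of all regions). Without LT-HSC KO 4, 1 and 7 were strong; in all 5 libraries the 1 strong region was in LT-HSC KO near Ccne1, which encodes cyclin E1, at ranks 11296, 8039.5 and 13143. Cdk6, a kinase that drives exit from quiescence, had 4 regions in MPP KO alone. It also had a region held by all libraries at a mean position of 66.7 in LT-HSC KO and 6.08 in MPP KO (difference 60.6, SE 10.1, adjusted p = 0.034 by limma). Of 53 MYC network regions, 2 and 7 were separated (3.77% and 13.2%), and of 72 at MYC target genes 4 and 9 (5.56% and 12.5%). The region chr15:61999592-62000015 near Myc was strong in MPP KO at ranks 12277.5 and 14062. At Mxi1, a MYC antagonist, a region outside the gene was higher in LT-HSC KO (difference of position 53.1, SE 10.9, adjusted p = 0.045 by limma).

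For inflammatory and signalling genes, regions in LT-HSC KO alone and MPP KO alone were counted against 6.69% and 11.3% of all regions. The counts were 1 and 15 of 87 for interferon and inflammation (1.15% and 17.2%). For AP-1 and immediate early genes they were 2 and 12 of 94 (2.13% and 12.8%), and for cytokine receptors 1 and 6 of 57 (1.75% and 10.5%). The last 2 lists were near the share of all regions towards MPP KO. Without LT-HSC KO 4 the 3 lists had 2 and 22 of 81 (2.47% and 27.2%), 4 and 23 of 86 (4.65% and 26.7%), and 1 and 13 of 50 (2% and 26%). All regions then had 15.3% and 17.98%. With LT-HSC KO 1 left out the lists had 12 and 25 of 142 (8.45% and 17.6%), 8 and 22 of 146 (5.48% and 15.1%), and 5 and 19 of 98 (5.10% and 19.4%). All regions had 9.12% and 13.1% in that case. The interferon list then had 6 strong regions in LT-HSC KO (4.23%, against 3.24% of all regions), so its low share in LT-HSC KO rested on that library. Tnfaip3, a brake on NF-κB, had 2 strong MPP KO regions at ranks of 9602 to 16967.5, and Nfkbia, the NF-κB inhibitor, had 1 at 8916 and 10538.

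Strong LT-HSC KO regions were not limited to blood genes. The genes with most of them were Nav3 and Tacr1 with 3 each. Another 13 genes had 2, among them Opcml, Clec14a and Ctnna3. Nav3 is a microtubule-associated protein, Tacr1 the substance P receptor, Opcml a neuronal adhesion protein, Clec14a an endothelial lectin and Ctnna3 an alpha catenin. The best Nav3 region, chr10:109924177-109924592, ranked 1734, 1957 and 7430.5 in LT-HSC KO and was in no MPP KO list. The neuronal and hepatic control genes, chosen as markers of tissues other than blood, had 5 of 36 regions in LT-HSC KO alone and 0 in MPP KO alone (13.9% and 0%), with 3 strong, near Snap25, Apob and Tat. These counts became 8 and 3 of 34 (23.5% and 8.82%) without LT-HSC KO 4. In all 5 libraries the control share in LT-HSC KO alone was close to that of the HSC identity genes, 14.2%. The strong share of the control was higher, at 8.33% against 4.72%. Once LT-HSC KO 4 was dropped, the control lay above the HSC identity genes, at 23.5% against 16.8% (strong, 8.82% against 6.32%). It also did when LT-HSC KO 1 was dropped, at 22.4% against 14.5% (strong, 13.4% against 6.07%). A share above that of all regions was thus not limited to stem cell genes. The genes with most strong MPP KO regions were Runx1 with 4, followed by 12 genes with 3, among them Foxp1, Rftn1, Rab11fip4, Pid1, Smad3 and Tgfbr2.

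Runx1, the transcription factor that founds definitive blood, had its strongest such region inside the gene at chr16:92715476-92716169. It ranked 4794 and 4467 in MPP KO and was in no LT-HSC KO list. The other 3 ranked between 8874 and 17249 in MPP KO. Runx1 had 34 and 35 regions in the full MPP KO lists and 7, 11 and 21 in the LT-HSC KO lists, and 4 of its 17 equal-list regions were separated, all towards MPP KO. Rftn1, a lipid raft protein of lymphocytes, had strong regions on both sides. One, chr17:50068300-50069045, ranked 10837, 8927.5 and 8345 in LT-HSC KO alone, and 3 others were in MPP KO alone, the best at 10334.5 and 8651.5. Of the 280 genes with strong LT-HSC KO regions and the 968 with strong MPP KO regions, 30 had both (10.7% of the first and 3.10% of the second).

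The sets differed in where they lie. Of the strong LT-HSC KO regions, 21.2% had no gene within 100 kb (95% Wilson interval 17.4% to 25.6%), against 10.02% of the strong MPP KO regions (8.44% to 11.8%) and 8.18% of all regions in equal lists. The intervals cover counting error only. Few of either were within 1 kb of a gene start, 3.71% (2.22% to 6.14%) in LT-HSC KO and 4.76% (3.69% to 6.11%) in MPP KO, against 29.996% of all regions in equal lists. Where the reference gave no start, either gene end was used. In full lists the share of peaks near a start was 40.7%, 29.1% and 22.9% in LT-HSC KO and 20.3% and 19.2% in MPP KO (difference 11.1 percentage points, p = 0.2, two-sided exact permutation test). In equal lists it was 40.7%, 38.2% and 38.0% in LT-HSC KO and 40.7% and 40.4% in MPP KO. The difference was then −1.63 points (p = 0.3, two-sided exact permutation test). It turned to 2.09 when peaks were ranked by fold enrichment and to 0.565 without LT-HSC KO 1.

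**Figure D3:**
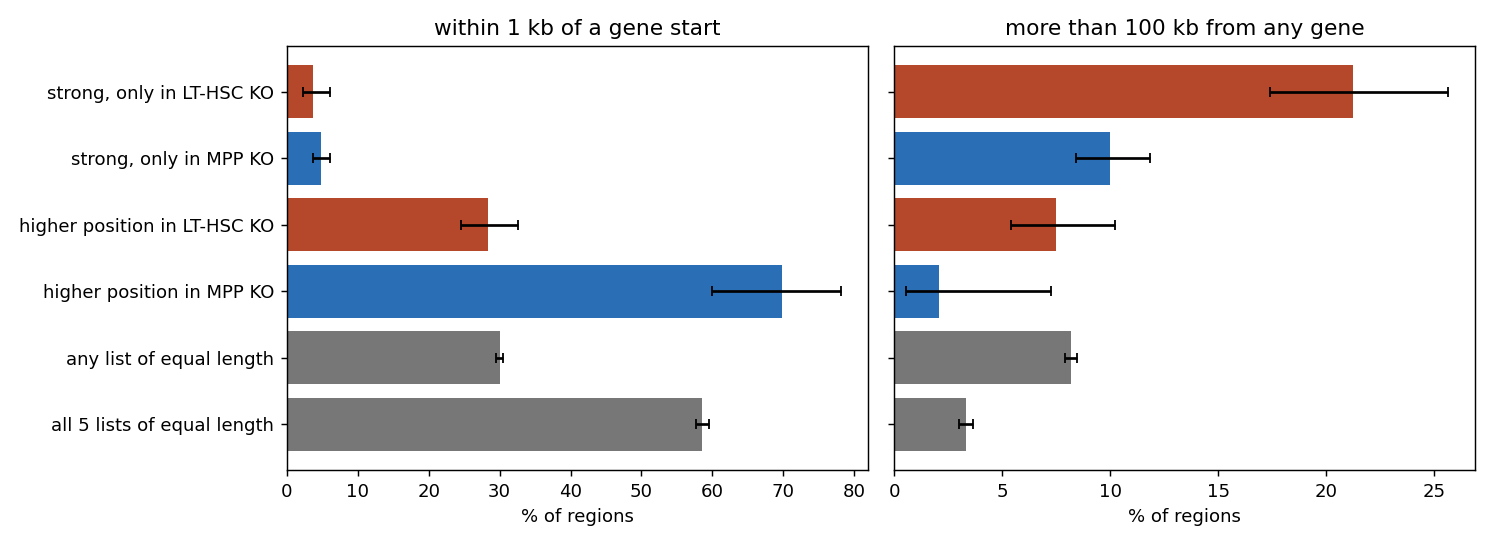
Percentage of regions within 1 kb of a gene start (left; either gene end where no start was given) and more than 100 kb from any gene (right), for regions separated between LT-HSC KO (red) and MPP KO (blue) and for all regions (grey); error bars are 95% Wilson intervals. Strong LT-HSC KO regions lie far from genes in 21.2% of cases, and 69.8% of regions ranked higher in MPP KO lie near a start.

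Regions held by all 5 equal lists were compared by position with limma. Of 10775, 468 were higher in LT-HSC KO (4.34%) and 96 higher in MPP KO (0.891%) at an adjusted p under 0.05. At an unadjusted p under 0.05 there were 1644 and 1450. The ranks of the groups did not overlap at any of the 564, nor at 51.3% of all regions tested (23.5% higher in LT-HSC KO and 27.8% higher in MPP KO). The calls depended on the libraries. There were 0 in either direction without LT-HSC KO 1, LT-HSC KO 2, MPP KO 1 or MPP KO 2, and 2549 and 2780 without LT-HSC KO 4. The split also moved with the scale, to 278 and 610 on the log2 of the rank and to 369 and 270 on normal scores.

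Among the regions higher in LT-HSC KO, the 5 genes with the largest differences were Jakmip2, Dapk1, Plscr4, Osbpl8 and Zdhhc19. Jakmip2, a Golgi and cytoskeleton protein, had an intragenic region at ranks 308, 297 and 2307 in LT-HSC KO and 19608.5 and 19279 in MPP KO. Its position averaged 95.7 ± 5.10 and 14.3 ± 1.03 (difference 81.4, SE 9.42, adjusted p = 0.034 by limma). Dapk1, a death-associated kinase, had 2 such regions. The first, chr13:60644523-60645034, ranked 2586, 3011.5 and 2420 in LT-HSC KO and 20351.5 and 21499 in MPP KO. The second lay 0.401 kb from the start, at 6675.5, 6149.5 and 4320 in LT-HSC KO and 17724 and 15814 in MPP KO. At the other three genes, Plscr4 (a phospholipid scramblase), Osbpl8 (a lipid transfer protein) and Zdhhc19 (a palmitoyltransferase), the differences of position were 79.2, 78.5 and 78.0 (SE 10.5, 9.84 and 10.1, adjusted p = 0.034 by limma for each).

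Among regions higher in MPP KO, the largest differences were at Srsf10, Xpc, Set, Slc39a11 and Grtp1. The Srsf10 start region ranked 20027.5, 20599 and 17074 in LT-HSC KO and 1542 and 2694 in MPP KO. Its position averaged 15.2 ± 8.34 and 90.7 ± 3.59 (difference −75.4, SE 10.7, adjusted p = 0.034 by limma). The region at the Set start shown above ranked 17533.5, 21226 and 19071 in LT-HSC KO and 3416 and 4249 in MPP KO. Its difference of position was −68.1 (SE 10.7, adjusted p = 0.034 by limma). Xpc, a DNA damage sensor, Slc39a11, a zinc transporter, and Grtp1, a GTPase-activating protein, had differences of −71.0, −68.1 and −67.7 (SE 10.3, 10.5 and 13.4). At Grtp1 the LT-HSC KO libraries were far apart, at ranks 21949.5, 13484 and 18607.

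**Figure D4:**
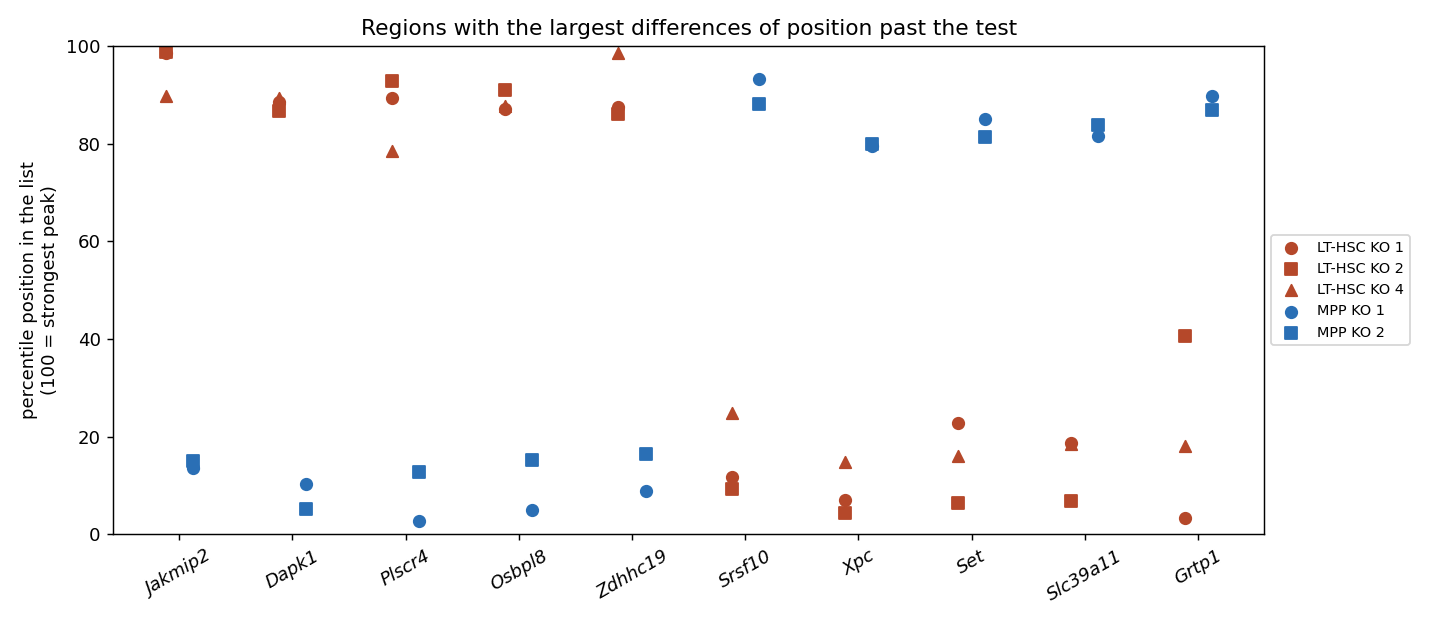
Percentile position (100 = strongest of 22690 peaks) in each library of the leading region of the 10 genes with the largest differences past the test, LT-HSC KO in red and MPP KO in blue. At each of the 10 the 3 LT-HSC KO points and the 2 MPP KO points do not overlap; Grtp1 has the widest LT-HSC KO spread.

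Position near genes and base composition moved with these calls. Of regions higher in MPP KO, 69.8% lay within 1 kb of a start (95% Wilson interval 60.0% to 78.1%), against 28.4% of those higher in LT-HSC KO (24.5% to 32.7%) and 58.6% of all tested. Among promoters, the 126 that were higher in LT-HSC KO had a median GC content of 55.3%, the 74 higher in MPP KO 70.0%, and all 6144 tested 62.0%. The CCAAT letters were in 65.1% of the LT-HSC KO set and 25.7% of the MPP KO set, against 46.7% of all tested. The GC box was in 40.5% and 87.8%, against 71.6%, and the E-box in 9.52% and 21.6%, against 10.4%. Promoters separated in equal lists had the same order, with a median GC content of 56.7% for the 232 in LT-HSC KO alone and 66.5% for the 432 in MPP KO alone. The part of base composition in the differences was not tested.

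The WT libraries gave an independent view of regions chosen in KO cells. Of the 377 strong LT-HSC KO regions, LT-HSC WT 2 held 97.1% and LT-HSC WT 3, a list of 22878 peaks, held 48.0%. MPP WT 1 and 2, with 85471 and 80451 peaks, held 2.65% and 3.18%. Of the 1198 strong MPP KO regions, LT-HSC WT 2 and 3 held 5.93% and 3.26%, and both MPP WT lists held 100%. Of all 108963 regions, LT-HSC WT 2 and 3 held 44.2% and 20.4%, and MPP WT 1 and 2 held 71.7% and 68.8%. Among the 299 regions higher in LT-HSC KO that all 9 equal lists held, 296 were also higher in LT-HSC WT than in MPP WT, and all 85 of those higher in MPP KO were also higher in MPP WT. The median difference of position was 34.3 in KO and 26.3 in WT for the first set, and −50.8 in KO and −14.7 in WT for the second. Both sets were chosen for a large difference in KO, which raises the size of the KO medians. Their gap from the WT medians therefore does not show that the step is smaller in WT. Over all 9717 regions in all 9 equal lists it was −3.54 in KO and 0.359 in WT, and 5061 were higher in LT-HSC WT and 4656 in MPP WT.

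**Figure D5:**
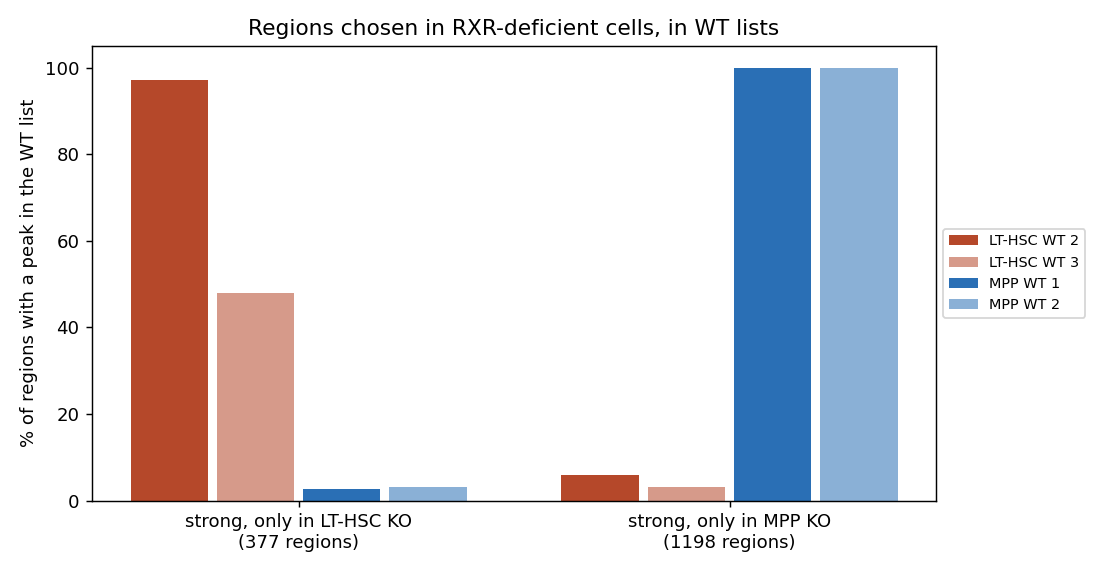
Percentage of the strong regions of each KO cell type that had a peak in each WT list, LT-HSC WT in red and MPP WT in blue (paler for the second library of a pair). Of the 377 LT-HSC KO regions, 97.1% and 48.0% had a peak in the LT-HSC WT lists and 2.65% and 3.18% in the MPP WT lists; of the 1198 MPP KO regions, 5.93% and 3.26% had one in the LT-HSC WT lists and 100% in both MPP WT lists.

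Whether the step between the cell types differed between KO and WT cells was tested over the 9717 regions in all 9 equal lists. No region passed (0 at an adjusted p under 0.05 by limma, 0% of those tested). The smallest adjusted p was 0.56, and 818 regions had an unadjusted p under 0.05, 203 with a positive and 615 with a negative difference. Without LT-HSC KO 4 there were 2475 calls. The named regions were picked for a large difference in KO, which enters this test, so their values are descriptions. At the Srsf10 start the LT-HSC and MPP positions averaged 15.2 and 90.7 in KO, and 77.9 and 93.5 in WT. The difference of its steps was −59.9 (SE 12.0, adjusted p = 0.56 by limma). At the Set start shown above the positions were 15.0 and 83.1 in KO and 81.5 and 91.2 in WT. Its difference of steps was −58.4 (SE 11.7, adjusted p = 0.56 by limma). Plscr4 went the other way, with a step of 79.2 in KO and 26.3 in WT (difference 52.9, SE 15.5). At Mafk, of the AP-1 and immediate early list, the step was −55.5 in KO and −12.9 in WT (difference −42.6, SE 15.1). At Grtp1 it was −67.7 in KO and −34.6 in WT (difference −33.1, SE 15.9). Each of these had an adjusted p of 0.56 by limma. Differences of steps were smaller at the remaining named regions that all 9 equal lists held. At Slc39a11 the step was −68.1 in KO and −59.6 in WT (difference −8.44, SE 11.7). At Thrb it was 48.6 in KO and 43.0 in WT, at Cr2 45.1 and 44.0, and at Epor 41.7 and 43.8.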

How the data were processed

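ATAC-seq libraries of sorted LT-HSCs and MPPs were sequenced with reads of 50 nt, per the labels' protocols. The authors deposited 1 peak list per library. Per the submitters' processing notes the build was mm10 and the tools included MACS2 2.1.1, HOMER 4.10.3, cutadapt 1.7 and Bowtie2. Each deposited peak has a display score, a fold enrichment (a ratio), and a −log10 p-value and q-value. No label says whether reads were shifted for Tn5 or duplicates removed. Read depth is unknown and no counts were used.

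Peaks overlapping by at least 1 bp were merged. Peaks were ranked by −log10 q, with ties by fold enrichment and tied peaks sharing a mean rank: 73.6% to 89.2% of peaks per list were tied. The display score was not used. Lists were cut to 22690 peaks, and a position is the percentile of the rank. A region belongs to the protein-coding gene (20665 in GRCm38.p6) that contains its midpoint, otherwise to the nearest within 100 kb. Exact permutation tests (two-sided) were used for group values, and positions were compared by limma 3.58.1 (R 4.3.3) with a mean-variance trend and Benjamini-Hochberg adjustment over all regions. Promoter windows counted as held where a region covered at least 150 of their 300 bases. The rank test was run on simulated ranks with the same spread in all 5 libraries. The libraries here differ in spread, so that run does not show how reliable their calls are.

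The regions, 23 gene lists and tests were chosen with earlier results of these data known. Named genes were Rxra and Rxrb, the 5 genes per direction with most strong regions, the 5 with the largest differences of position past the test, and the leading member per list and direction; Acox2, Tgfb1, Tgfbr2 and others beside them were chosen after their values were seen. Libraries sharing a number did not deviate together (r = 0.0302 for number 1 and 0.00384 for number 2, over 10775 regions), so the numbers were not used for pairing. Chromosomes X and Y were not analysed here, and no genome sequence was used beyond the RefSeq promoter windows. A few genes of the lists are not reported here by name.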

Additional observations from a re-analysis of the deposited data

How the results depend on the processing

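Differences in peak number, in full-list share near starts and in Jaccard index kept their direction under every alternative run. Leaving out 1 library at a time gave -49363 to -24915 peaks, 6.21 to 15.1 percentage points and 0.114 to 0.328. The equal-list share near starts ran from -1.78 to 0.565 points and reversed without LT-HSC KO 1 (0.565) and on ranking by fold enrichment (2.09). Leaving out 1 library gave, for LT-HSC KO and MPP KO, 1672 to 4324 and 20496 to 38925 regions in full lists, 2808 to 6100 and 4666 to 8738 in equal lists, and 424 to 2167 and 1289 to 5362 strong regions. It gave 0 to 2549 and 0 to 2780 regions past the rank test, and 0 to 2475 for the difference of steps. Leaving out LT-HSC KO 1 lengthens the equal lists, and leaving out a library takes 1 residual degree of freedom and can leave MPP KO with 1 library, assumed to vary like the LT-HSC KO libraries. Lists cut to 11345 peaks gave 1333 and 2147 equal-list regions, 63 and 148 strong regions, and 131 and 40 rank calls, with fewer regions to count.

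Rank calls in LT-HSC KO and MPP KO were 278 and 610 on log2 ranks and 1984 and 1218 for regions in at least 3 of 5 equal lists. In MPP KO they were 213 without the trend and 270 on normal scores. The cause was not tested. With the replicate number as a block, LT-HSC KO 4 stands alone in its block and drops out, and the rank calls were 2358 and 2991 and the difference of steps 1197. The numbers do not pair the libraries. Of 532 alternatives for 55 values of named genes, 0 reversed, 41 lost their call and 99 counts moved by over 1.5 times. Per-list counts without LT-HSC KO 4 or 1 were added after seeing the data. The unknown depth sets how many weak peaks a list holds, and absence of a peak is not absence of accessibility.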

Other observations

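Separated regions were spread unevenly over the chromosomes. Of regions in equal lists, the share in LT-HSC KO alone was 3.08% on chromosome 11 and 3.72% on chromosome 19, and 9.14% on chromosome 3 and 9.16% on chromosome 18. The share in MPP KO alone ran the other way, at 14.5% and 14.9% on chromosomes 11 and 19, and 7.83% and 9.49% on chromosomes 3 and 18. These are descriptions over regions, with no test.

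Among the strongest LT-HSC KO regions, 1 inside Cavin2, a caveola protein of megakaryocytes and endothelium, ranked 627, 329.5 and 2489 in LT-HSC KO 1, 2 and 4 and was in no MPP KO list. Among the strongest MPP KO regions, 1 near Acss1, a mitochondrial acetyl-CoA synthetase, ranked 2766 and 2927 in MPP KO 1 and 2 and was in no LT-HSC KO list. A region inside Ccl4, an inflammatory chemokine gene, ranked 4562 and 4533 in MPP KO 1 and 2 and was likewise in no LT-HSC KO list.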
